A study of Mus musculus with 8 samples.

Results

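*Eif2ak2*, *Cxcl10* and *Irf1* are the interferon-response genes described here, 3 of the 84 Toll-like receptor (TLR) pathway genes on a quantitative PCR plate that also carried 5 housekeeping genes. They were taken by name from each of the 3 deposited tables, 1 table per strain label. The series asked what 7 days of R848 do to the spleen and whether that depends on the receptor for R848 or on the receptor for type I interferon. R848 (resiquimod) is a small-molecule agonist of TLR7. The spleens came from mice labelled TLR7-/- (lacking that receptor) and given R848 or PBS (Mock), mice labelled IFNAR-/- (lacking the type I interferon receptor) and given R848 or Mock, and C57BL/6 wild-type mice given R848 or Mock. R848 was dosed at 1 mg per kg per day. The 8 samples fall into 6 groups, each sample being whole-spleen RNA pooled from 3 mice. Each treatment has 1 sample in TLR7-/- and IFNAR-/-, and 2 experiments in wild type that the table gives only as a mean. The genetic background of the deficient mice, their age and the deleted part of each gene were not stated in the labels. No value below therefore carries a replicate error or a test, and words such as higher or lower apply to these pools alone.

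Type I interferons bind IFNAR and act on genes through the interferon-stimulated response element (ISRE). Interferon gamma acts through its own receptor and the gamma-activated site (GAS), and many interferon-inducible genes also carry sites for NF-kB. *Eif2ak2* encodes PKR, a kinase that senses double-stranded RNA and halts translation. *Cxcl10* encodes a chemokine that draws activated T cells and NK cells through CXCR3. *Irf1* encodes a transcription factor induced by both types of interferon that itself acts on interferon-inducible genes.

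The start regions of the 3 genes are shown because they differ in which of these elements they hold. The sequences are those of RefSeq (GRCm38.p6), from 250 bases before the annotated start to 30 bases from the start on, 5′ to 3′ on the strand of the gene. Capitals mark matches to the ISRE core (GAAA, any 2 bases, GAAA), to the GAS motif TTCNNNGAA and to the NF-kB consensus, each searched on both strands. None of the 7 matches overlapped another. The *Eif2ak2* window lies at chr17:78882543-78882822 on the minus strand, that of *Cxcl10* at chr5:92348860-92349139 on the minus strand, and that of *Irf1* at chr11:53769764-53770043 on the plus strand.
Eif2ak2: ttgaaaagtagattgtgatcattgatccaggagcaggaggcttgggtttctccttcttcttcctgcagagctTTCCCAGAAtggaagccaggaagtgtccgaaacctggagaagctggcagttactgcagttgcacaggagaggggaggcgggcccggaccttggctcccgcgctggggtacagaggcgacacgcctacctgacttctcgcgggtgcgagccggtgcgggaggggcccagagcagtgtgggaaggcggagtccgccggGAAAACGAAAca
Cxcl10: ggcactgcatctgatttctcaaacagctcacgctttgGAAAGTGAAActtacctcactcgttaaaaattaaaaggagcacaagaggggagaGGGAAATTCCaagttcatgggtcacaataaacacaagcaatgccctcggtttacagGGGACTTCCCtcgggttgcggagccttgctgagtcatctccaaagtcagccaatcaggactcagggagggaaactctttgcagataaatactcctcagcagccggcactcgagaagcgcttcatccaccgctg
Irf1: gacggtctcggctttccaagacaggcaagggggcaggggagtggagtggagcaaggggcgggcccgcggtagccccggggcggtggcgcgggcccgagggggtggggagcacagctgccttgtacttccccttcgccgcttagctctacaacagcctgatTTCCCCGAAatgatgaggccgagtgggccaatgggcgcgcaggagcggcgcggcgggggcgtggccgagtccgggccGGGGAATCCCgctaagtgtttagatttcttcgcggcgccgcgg

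The *Eif2ak2* window held an ISRE core from base 19 to base 28 after the start (GAAAACGAAA) and a GAS match from -178 to -170 (TTCCCAGAA). The *Cxcl10* window held an ISRE core from -213 to -204 (GAAAGTGAAA) and NF-kB matches from -159 to -150 (GGGAAATTCC) and from -103 to -94 (GGGACTTCCC). The *Irf1* window held a GAS match from -90 to -82 (TTCCCCGAA) and an NF-kB match from -13 to -4 (GGGGAATCCC). A second annotated *Irf1* start, with its window at chr11:53770223-53770502, held no match. Of 32851 such windows in the table, 3.28% held an ISRE core, 7.83% a GAS match and 4.22% an NF-kB match. These matches describe letters in a window and say nothing of whether a factor was bound in these spleens.

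Levels are given as delta-Ct, the cycle at which a gene was detected minus the mean of the reference genes *Hprt1*, *Hsp90ab1* and *Gapdh*, so a lower delta-Ct is more RNA and 1 cycle is 2-fold. Delta-Ct values of different genes also reflect their assays and are not set against each other. Blank readings and those above cycle 35 were set to 35. This cap limits the delta-Ct of a column at between 12.43 and 15.63 in the 5 columns where it could be recognised. A blank reading cannot be told from a late one, and limits given below for capped genes take both as low RNA. The 3 genes stayed 3.35 cycles or more clear of the highest value of their column, the smallest gap being that of *Eif2ak2* in wild-type Mock. The wild-type columns are means of 2 experiments, so a capped reading in 1 experiment alone would not show. Below the cap, in wild type, refers to that mean. The reference genes themselves came up later in Mock than in R848, by 0.53 cycles in the TLR7-/- pair, 2.50 in the IFNAR-/- pair and at least 3.52 in the wild-type pair. *Tlr7*, the targeted gene of 1 strain, read 9.33 in TLR7-/- R848 and 9.20 in TLR7-/- Mock, against 9.47 in wild-type R848 and 12 in wild-type Mock. Its assay did not register a loss, and the labels do not say whether the assay lies in the deleted part. *Tlr3* had the same wild-type values as *Tlr7*, 9.47 and 12, and the reason was not tested. None of the plate's genes encodes a subunit of the interferon receptor, and 0 of 8 defining lineage genes of spleen cells looked for (among them *Cd3e* and *Itgam*) were on it, the cell type lists given last being made of other genes, so TLR7-/-, IFNAR-/- and spleen are throughout the names on the labels.

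*Eif2ak2* was higher with R848 in the IFNAR-/- and wild-type pairs and not in the TLR7-/- pair. Its delta-Ct was 8.53 in TLR7-/- R848 and 8.30 in TLR7-/- Mock, 4.13 in IFNAR-/- R848 and 8.83 in IFNAR-/- Mock, and 5.97 in wild-type R848 and 9.80 in wild-type Mock. The 3 Mock columns lay within 1.5 cycles of each other, whereas the 3 R848 columns spread over 4.40 cycles with IFNAR-/- highest in RNA and TLR7-/- lowest. The log2 difference, R848 minus Mock, was -0.23 in TLR7-/-, 4.70 (26.0-fold) in IFNAR-/- and 3.83 (14.2-fold) in wild type. Among genes measured below the cap in both columns of a pair, these ranked 58 of 78, 2 of 69 and 4 of 77 from the highest. Genes at the cap have limits in place of values and are outside these ranks.

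Set against wild type, the *Eif2ak2* response was 4.06 log2 units smaller in the TLR7-/- pair (a difference of -4.06, 4th from the lowest of 75 genes measured in both pairs). In the IFNAR-/- pair it was 0.87 larger, within 1 log2 unit, where the 69 measured genes had a median of 0.82, and it was 0.10 with the median gene set to 0. The gap between TLR7-/- and wild type had a part in each treatment. With R848, *Eif2ak2* was 5.90-fold lower in TLR7-/- than in wild type (log2 difference -2.56), and with Mock it was 2.83-fold higher (1.5). In Mock 48.8% of the plate was likewise at least 1 log2 unit higher in TLR7-/- than in wild type, and with R848 14.3% was as much lower. The Mock difference of *Eif2ak2* was 0.58 once the median gene was set to 0. With R848, *Eif2ak2* was 3.58-fold higher in IFNAR-/- than in wild type (1.84), and with Mock the difference was 0.97.

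*Cxcl10* was higher with R848 in the IFNAR-/- pair and stood within 2-fold in the other two pairs. Its delta-Ct was 1.53 in TLR7-/- R848 and 1.60 in TLR7-/- Mock, 0.03 in IFNAR-/- R848 and 5.53 in IFNAR-/- Mock, and 2.27 in wild-type R848 and 2.00 in wild-type Mock. The IFNAR-/- columns held both the highest and the lowest level of the 6, and the remaining columns lay between 1.53 and 2.27. The log2 difference, R848 minus Mock, was 0.07 in TLR7-/-, 5.50 (45.3-fold) in IFNAR-/- and -0.27 in wild type. The IFNAR-/- value ranked 1 of the 69 genes measured below the cap in both columns. Of the 15 genes at the cap in that pair, *Il10* (at least 7.6) and *Ccl2* (at least 6.8) had lower limits above both *Cxcl10* and *Eif2ak2*, and 12 had limits that leave their order open. The wild-type value ranked 57 of 77 and turned to 0.25 with *Hsp90ab1* alone as the reference. It was -0.77 with 5 housekeeping genes and -1.50, past 2-fold lower, with each column centred on its own median.

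The *Cxcl10* response in the IFNAR-/- pair exceeded that in wild type by 5.77 log2 units, the highest of 69 genes measured in both pairs, whose median was 0.82. *Ccl2*, at the cap in IFNAR-/- Mock, had a limit of at least 6.92, which is above 5.77. *Cxcl10* was 11.6-fold lower in IFNAR-/- Mock than in wild-type Mock (log2 difference -3.53), the lowest of 70 measured genes, whose median was -0.36. Of 14 genes at the cap in a Mock column, *Btk* and *Casp8* had limits lower still, at most -8.33 and -6.43. Both were at the cap in IFNAR-/- R848 and Mock, where blank and late readings cannot be told apart. The order of the other 12 is open. *Cxcl10* was 4.72-fold higher in IFNAR-/- R848 than in wild-type R848 (2.24), which ranked 5 of 74 genes with a median of 0.44. Among all 84 genes, 31% were at least 1 log2 unit lower in IFNAR-/- than in wild type with Mock, and 29.8% at least 1 unit higher with R848. Set against TLR7-/- Mock in place of its own Mock, IFNAR-/- R848 had a log2 difference of 1.57 for *Cxcl10*, in place of 5.50. In the TLR7-/- pair the response was 0.34 above that of wild type, and the levels differed from wild type by 0.74 with R848 and 0.40 with Mock.

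*Irf1* was higher with R848 in the IFNAR-/- and wild-type pairs, by less than *Eif2ak2*. Its delta-Ct was 2.83 in TLR7-/- R848 and 3.10 in TLR7-/- Mock, 3.43 in IFNAR-/- R848 and 4.83 in IFNAR-/- Mock, and 2.52 in wild-type R848 and 4.45 in wild-type Mock. The 3 R848 columns lay within 0.91 cycles, and TLR7-/- Mock stood closer to them than to the other two Mock columns. The log2 difference, R848 minus Mock, was 0.27 in TLR7-/-, 1.40 (2.64-fold) in IFNAR-/- and 1.93 (3.81-fold) in wild type. The IFNAR-/- value equalled the median of the 69 genes measured in that pair, 1.40. The wild-type value ranked 18 of 77 genes with a median of 0.43. The housekeeping genes *Gusb* and *Actb*, not among the reference genes, had log2 differences of 1.5 and 1.6 in IFNAR-/-, above that of *Irf1*. In wild type they had 1.88 and 0.63, below that of *Irf1*. A rise of the size seen for *Irf1* in IFNAR-/- was thus not particular to interferon-response genes.

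The *Irf1* call in IFNAR-/- depended on the scaling. It was 0.78 with all 5 housekeeping genes as reference and 0.15 with the median gene set to 0, both under 2-fold. With TLR7-/- Mock as the control it was -0.33 in IFNAR-/- and 0.58 in wild type. The response differed from that of wild type by -1.66 in the TLR7-/- pair and by -0.53 in the IFNAR-/- pair. By treatment, *Irf1* in TLR7-/- differed from wild type by -0.31 with R848 and by 1.35 (2.55-fold higher) with Mock. How the difference divides between the treatments depended on the scaling, with -0.35 and 0.92 with 5 housekeeping genes, -0.70 and 0.43 with the median gene set to 0, and -0.33 and 0.33 with each column centred on its own median.

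**Figure D1:**
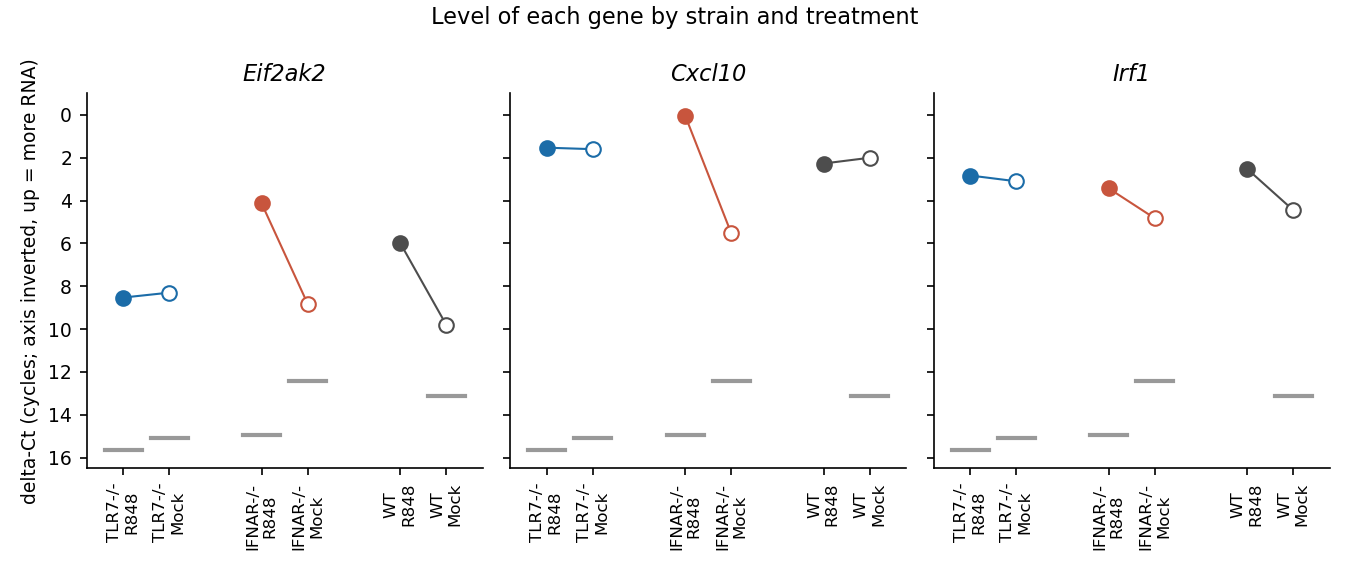
Delta-Ct in cycles (inverted axis, up is more RNA) of *Eif2ak2*, *Cxcl10* and *Irf1* in the TLR7-/-, IFNAR-/- and wild-type (WT) pairs. Filled circles are R848 and open circles Mock, each 1 pooled sample or, in WT, the authors' mean of 2 experiments, and grey bars mark the highest delta-Ct the Ct cap allows where it was recognised. *Cxcl10* spans 0.03 to 5.53 in the IFNAR-/- pair alone.

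Counted together, 0 of the 3 genes were 2-fold higher or lower in TLR7-/- (plate background 4.76% higher and 3.57% lower of 84 genes). In IFNAR-/- all 3 were higher on a plate where 53.6% of genes were higher and 2.38% lower, and in wild type 2 of 3 were higher where 38.1% were, with 13.1% lower. By size, *Cxcl10* and *Eif2ak2* came after *Il10* and *Ccl2*, whose lower limits already exceed them, and led the genes measured below the cap in the IFNAR-/- pair. Between strains, 32.1% of the plate responded at least 1 log2 unit less in TLR7-/- than in wild type, as did *Eif2ak2* and *Irf1*. In IFNAR-/- 40.5% responded at least 1 unit more, as did *Cxcl10*.

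**Figure D2:**
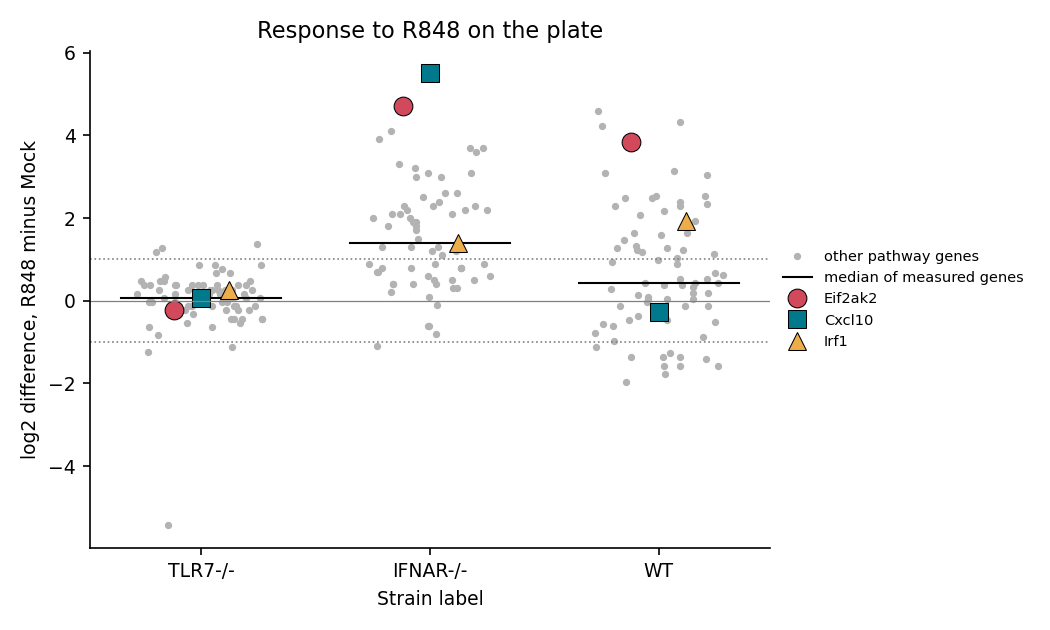
Log2 difference, R848 minus Mock, of every pathway gene measured below the Ct cap in both columns of a pair (grey points), with the 3 genes as large symbols, the median as a bar and 2-fold as dotted lines. *Cxcl10* (5.50) and *Eif2ak2* (4.70) lead the plotted genes of the IFNAR-/- pair, while in WT *Eif2ak2* (3.83) and *Cxcl10* (-0.27) lie far apart and in TLR7-/- all 3 lie near 0.

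The responses can be compared among the 3 genes within a pair, where the reference genes cancel. In the TLR7-/- pair they lay within 0.50 log2 units of each other. In the IFNAR-/- pair *Eif2ak2* and *Cxcl10* differed by 0.80, and *Cxcl10* exceeded *Irf1* by 4.10. In wild type *Eif2ak2* exceeded *Cxcl10* by 4.10 and *Irf1* by 1.90, and *Cxcl10* stood below *Irf1* (a difference of -2.2). The order of *Cxcl10* and *Irf1* was thus opposite in the IFNAR-/- and wild-type pairs, whatever the reference.

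**Figure D3:**
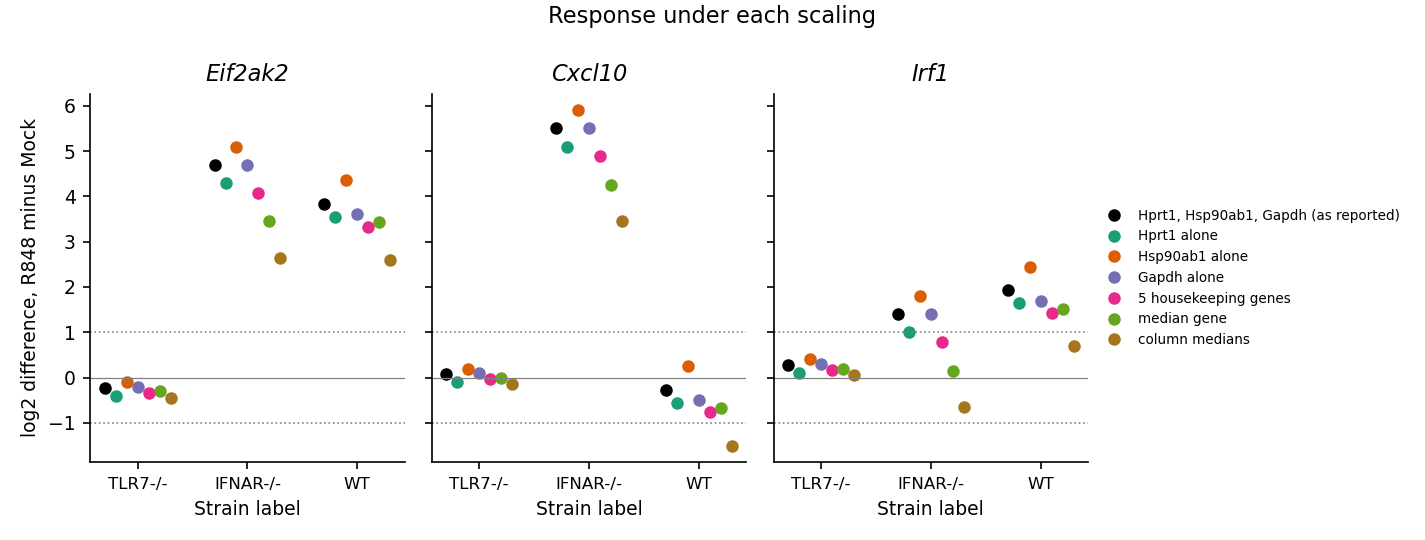
Log2 difference, R848 minus Mock, of the 3 genes under 7 scalings, for TLR7-/-, IFNAR-/- and WT. The spread over scalings is 2.65 to 5.10 for *Eif2ak2* and 3.45 to 5.90 for *Cxcl10* in IFNAR-/-, all past the dotted 2-fold line, and -0.65 to 1.80 for *Irf1* there.

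Over the 6 columns *Eif2ak2* ranged over 5.67 cycles and *Cxcl10* over 5.50, the widest ranges of the 69 pathway genes below the cap in all columns. Of the 15 genes at the cap in some column, 5 (*Btk*, *Casp8*, *Ccl2*, *Cd14* and *Il10*) had lower limits of range above both. *Irf1* ranged over 2.31 cycles, near the median range of 2.42. Pearson r over the 6 columns was 0.52 for *Eif2ak2* and *Cxcl10*, 0.48 for *Eif2ak2* and *Irf1*, and 0.60 for *Cxcl10* and *Irf1*. These correlations are descriptions over 6 columns that share the reference genes and the depth of each plate.

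Among genes below the cap in all 6 columns, those with the most similar pattern differed among the 3, judged by the root mean square distance of the 6 values after centring each gene on its mean. The nearest to *Eif2ak2* were *Tlr7* (1.25 cycles, r = 0.78), *Tlr4*, the lipopolysaccharide receptor (1.32, r = 0.73), and *Tollip*, an inhibitor of TLR signalling (1.42, r = 0.68), where the median gene lay at 1.82. The nearest to *Cxcl10* was *Tnf* (0.56 cycles, r = 0.98), where the median gene lay at 1.41. *Tlr9*, the receptor for CpG DNA (0.82, r = 0.93), and *Ticam2*, an adaptor of TLR4 (0.84, r = 0.89), followed. *Cxcl10*, *Tnf*, *Tlr9* and *Ticam2* all had their lowest level in IFNAR-/- Mock, at -3.37, -2.24, -1.99 and -2.25 from their own means. In that column 31% of the plate was at least 1 log2 unit lower than in wild-type Mock. *Irf1* lay nearest to *Peli1*, a ubiquitin ligase of TLR signalling (0.25 cycles, r = 0.99), *Map2k4*, a kinase upstream of JNK (0.36, r = 0.90), and *Traf6*, the ubiquitin ligase downstream of MyD88 (0.38, r = 0.99), with the median gene at 0.80. The neighbours of *Eif2ak2* lay farther from it than those of the other two genes from theirs, with their largest gap in IFNAR-/- R848.

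**Figure D4:**
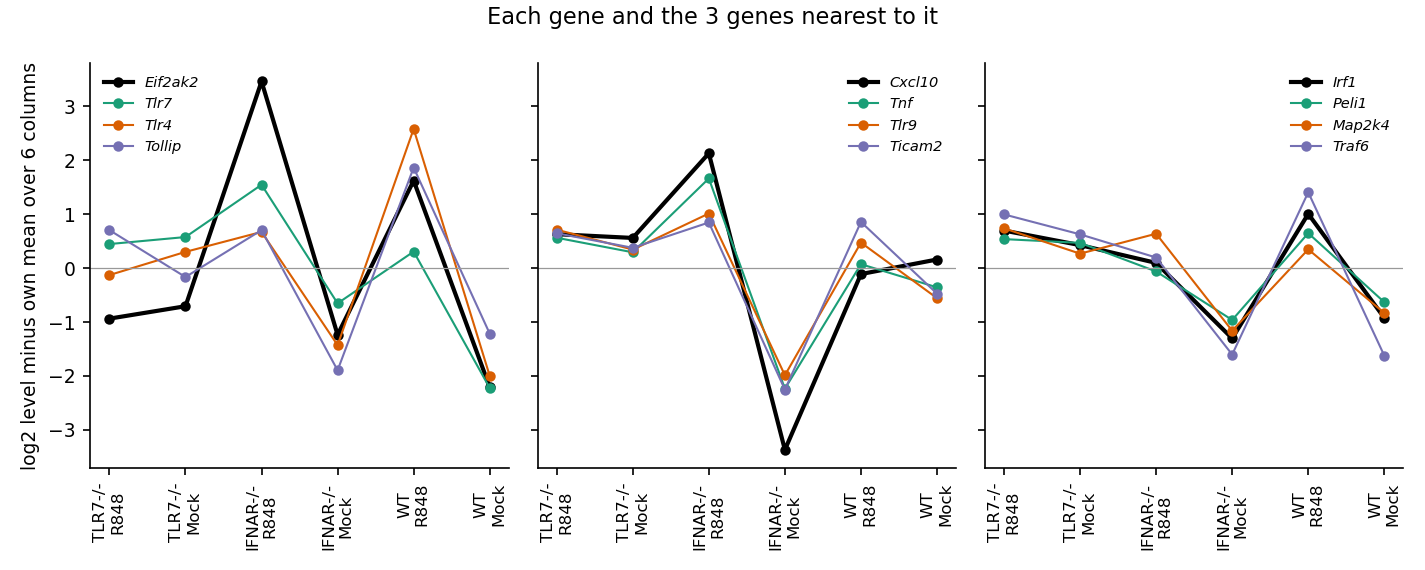
Log2 level of each gene minus its own mean over the 6 columns, for *Eif2ak2*, *Cxcl10* and *Irf1* (black) and the 3 genes nearest to each. *Tnf* has the pattern nearest to *Cxcl10* (r = 0.98), and *Eif2ak2* stands above *Tlr7*, *Tlr4* and *Tollip* in IFNAR-/- R848.

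Interferon beta, interferon gamma and TNF, which induce one or more of these genes, were read on the same plate. *Ifnb1*, encoding interferon beta, was at the Ct cap in TLR7-/- R848 and Mock, IFNAR-/- R848 and Mock and wild-type Mock, and had a delta-Ct of 14.37 in wild-type R848, so its direction is unknown in every pair. *Ifng*, encoding interferon gamma, had a delta-Ct of 9.03 in TLR7-/- R848 and 8.80 in TLR7-/- Mock, 9.13 in IFNAR-/- R848 and 10.33 in IFNAR-/- Mock, and 10.17 in wild-type R848 and 10.55 in wild-type Mock. It was 2.30-fold higher with R848 in IFNAR-/-, a log2 difference of 1.20 that was 0.80 with *Hprt1* alone, 0.58 with 5 housekeeping genes and -0.05 with the median gene set to 0. *Tnf* had a delta-Ct of 5.63 in TLR7-/- R848 and 5.90 in TLR7-/- Mock, 4.53 in IFNAR-/- R848 and 8.43 in IFNAR-/- Mock, and 6.12 in wild-type R848 and 6.55 in wild-type Mock. It was 14.9-fold higher with R848 in IFNAR-/-, a log2 difference of 3.90 where the measured genes had a median of 1.40. With the median gene set to 0 it was 2.65. Like *Cxcl10*, *Tnf* had both its highest and its lowest level in that pair, as did other genes such as *Tlr8*, *Tlr9*, *Pglyrp1* and *Ube2n*.

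A fixed list of 11 plate genes stood for the route to type I interferon, among them *Ticam2*, an adaptor of TLR4. With R848, 0 of 11 were 2-fold higher in TLR7-/-, 8 of 11 in IFNAR-/- and 7 of 11 in wild type, and none was 2-fold lower. The plate shares were 4.76%, 53.6% and 38.1% higher. *Irak1*, a kinase below MyD88, was open at the cap in every pair. *Tlr3* and *Tlr7*, whose wild-type values are identical, are both counted among the higher genes of wild type. The measured members had median log2 differences of 0.12 in TLR7-/- (plate 0.07; -0.05 for the route with *Hprt1* alone), 2.6 in IFNAR-/- (plate 1.40) and 1.81 in wild type (plate 0.43). With the median gene set to 0, which shifts every log2 difference by -0.07, -1.25 and -0.41 in the 3 pairs, 5 of the 11 were 2-fold higher and *Irf3* 2-fold lower in both IFNAR-/- and wild type, against 23 of the 84 plate genes higher in either. *Myd88*, the common TLR adaptor, was 9.19-fold higher in IFNAR-/- and 5.58-fold higher in wild type, and *Ticam1*, the adaptor of TLR3, 13.0-fold and 4.86-fold. *Tlr8* was 6.06-fold higher in IFNAR-/-, with 1.84-fold in wild type. *Tbk1*, the kinase that activates IRF3, had log2 differences of -0.13, 0.80 and 0.03 in TLR7-/-, IFNAR-/- and wild type, and *Irf3* had -0.13, -0.10 and -0.87, none past 2-fold with the 3 reference genes. *Irf3* in wild type was past it, and lower, with *Hprt1* alone (-1.15), *Gapdh* alone (-1.10) and 5 housekeeping genes (-1.37).

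Of 4 NF-kB subunit genes, 0 were 2-fold higher in TLR7-/-, 3 in IFNAR-/- and 1 in wild type, with medians of 0.32, 2.05 and 0.46, the last turning to -0.05 with 5 housekeeping genes. The plate shares were 4.76%, 53.6% and 38.1%, and the plate medians 0.07, 1.40 and 0.43, so the wild-type count and median lay near those of the plate. With the median gene set to 0, 1 of 4 was higher in IFNAR-/-, against 23 of 84. *Nfkb1*, encoding p50 and its precursor, was 13.0-fold higher in IFNAR-/- and 5.03-fold in wild type. *Rela* was 4.59-fold and *Nfkb2* 3.73-fold higher in IFNAR-/-, and in wild type their log2 differences were 0.38 and -0.47.

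**Figure D5:**
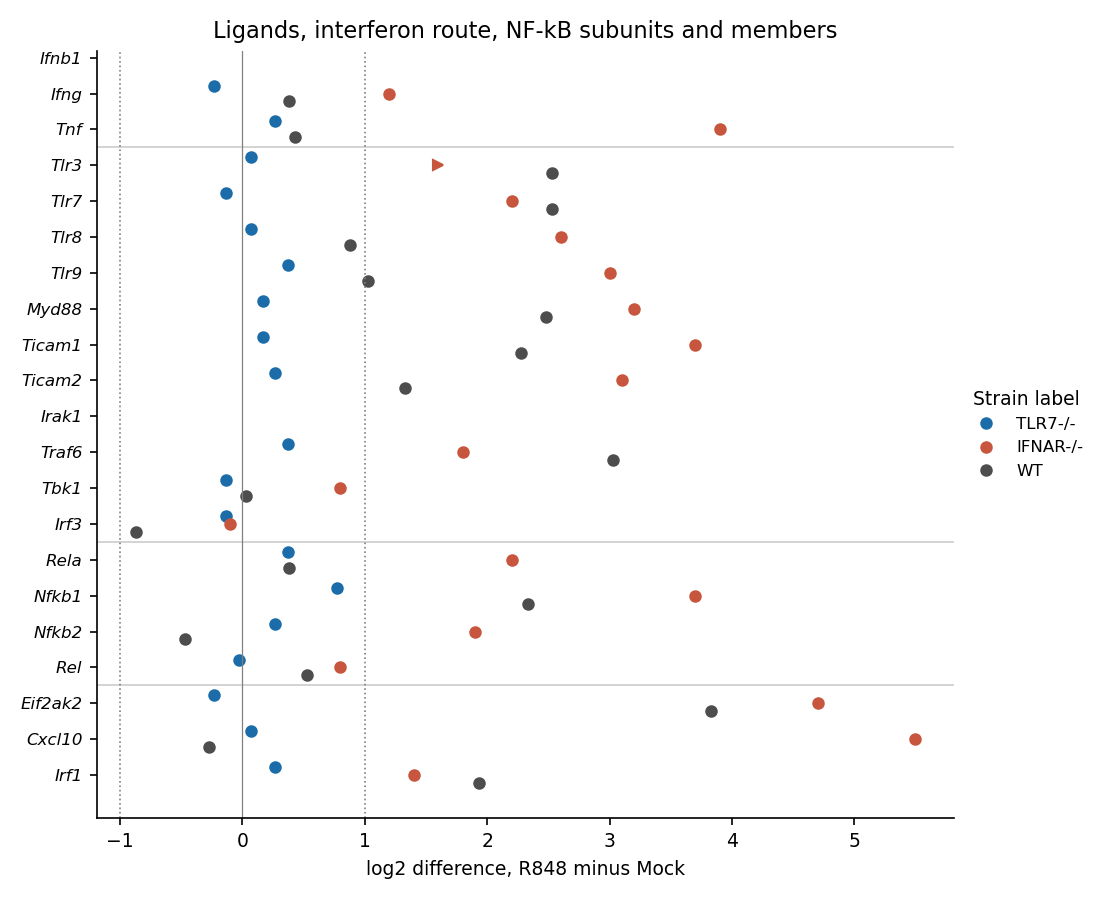
Log2 difference, R848 minus Mock, of the ligands, the interferon route, the NF-kB subunits and the 3 genes, for TLR7-/- (blue), IFNAR-/- (red) and WT (grey). Dotted lines are 2-fold, the triangle is a lower limit, and no point is drawn where the Ct cap leaves the direction open. The TLR7-/- points all lie within 2-fold, and *Cxcl10* (5.50), *Eif2ak2* (4.70) and *Tnf* (3.90) are the 3 farthest to the right among the plotted circles of IFNAR-/-.

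In whole spleen fewer cells of a type and less RNA per cell cannot be told apart. Of 5 monocyte, macrophage and neutrophil markers on the plate, 1 was 2-fold higher with R848 in TLR7-/-, 3 in IFNAR-/- and 3 in wild type, and 1 was 2-fold lower in IFNAR-/-. The plate shares higher were 4.76%, 53.6% and 38.1%, so the IFNAR-/- count is near that of the plate. A summed level adds different assays and is weighted to its most abundant member, so sums are set side by side only between columns. For these markers the sum relative to the references was 0.265 in both TLR7-/- columns, 0.349 in IFNAR-/- R848 and 0.133 in IFNAR-/- Mock, and 0.285 in wild-type R848 and 0.171 in wild-type Mock. *Cd14*, the lipopolysaccharide co-receptor, was at the cap in TLR7-/- Mock and IFNAR-/- R848. It was the 1 marker higher in TLR7-/- and the 1 lower in IFNAR-/-, by limits alone (at least 9.37, at most -6.8). The other 4 markers were within 2-fold in TLR7-/-. B cell markers summed to 0.122 and 0.125 in TLR7-/- R848 and Mock, 0.0995 and 0.0658 in IFNAR-/- R848 and Mock, and 0.152 and 0.241 in wild-type R848 and Mock, with *Btk* at the cap in all 4 columns of the deficient strains. T and NK cell products summed to 0.0208 and 0.0203 in TLR7-/- R848 and Mock, and 0.00762 and 0.00637 in IFNAR-/- R848 and Mock. In wild-type R848 and Mock they summed to 0.00531 and 0.0122. *Il2* was at the cap in both IFNAR-/- columns. In wild type 2 of 3, *Il2* (-1.57) and *Lta* (-1.37), were 2-fold lower with R848, where 13.1% of the plate was lower. *Ifng*, the remaining product, had 0.38 there. In IFNAR-/- 1 of 3, *Ifng*, was 2-fold higher, and in TLR7-/- none was higher or lower. The part of cell composition in the responses of *Eif2ak2*, *Cxcl10* and *Irf1* was not tested.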

How the data were processed

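RNA of pooled spleens was read on a TLR pathway plate (RT² Profiler) by quantitative PCR, per the labels' protocols. The authors deposited delta-Ct, a log2 measure counted in cycles, defined per the file headers as a gene's Ct minus the mean reference Ct. They also deposited a fold difference, the ratio of R848 over Mock, which was recomputed for 89 of 89 genes in each table (within 0.02 log2 units or 0.005 of a fold). Blank readings and those above Ct 35 were entered as 35, per the design text. The strain came from each table's name and the treatment from its columns. Another 6 per-sample columns restate delta-Ct and were not used, and separate wild-type experiments were not analysed here.

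Subtracting R848 from Mock delta-Ct gave the log2 difference. It was called at 2-fold, and differences between strains at 1 log2 unit, with genes at the cap counted only where their limit fixes the call. The coding of the call was checked on 200 simulated plates of 84 genes, 30 of them with true 4-fold changes. There 14224 of 14224 calls made were right and the remaining genes, at the cap, were not called. With true changes set well past the 2-fold line, this score does not measure error between single pools or shifts of the reference genes. No test was possible with 1 value per group. Alternatives were each reference gene alone, 5 housekeeping genes, centring on the median gene, another Mock column and thresholds of 1.5-fold and 3-fold. Centring each column on its own median was added after seeing the data. The rule named the 3 genes, the fixed lists and the 3 nearest genes of each, and the genes at the cap named beside a rank were chosen after their values were seen. Members, lists and motifs were chosen with earlier results of these data known. Python 3.11.15, pandas 2.3.3 and NumPy 2.4.6 were used.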

Additional observations from a re-analysis of the deposited data

Results flagged for a closer look

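Responses of opposite sign in different strains drew attention to 2 of the 3 genes, and none of these differences was tested. *Eif2ak2* had a log2 difference, R848 minus Mock, of -0.23 in TLR7-/-, 4.70 in IFNAR-/- and 3.83 in wild type, so that the TLR7-/- response differed by -4.06 from wild type and by -4.93 from IFNAR-/-. *Cxcl10* had 5.50 in IFNAR-/- and 0.07 in TLR7-/-, against -0.27 in wild type, so that the response differed by 5.77 in IFNAR-/- and by 0.34 in TLR7-/-. The 0.34 lies between 2 values within 2-fold, whose signs turn with the reference gene.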

How the results depend on the processing

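The responses of *Eif2ak2* in all 3 strains, and of *Cxcl10* in IFNAR-/-, kept their direction and side of 2-fold under every alternative run. *Cxcl10* in TLR7-/- was -0.10 with *Hprt1* alone, -0.04 with 5 housekeeping genes, 0.00 after centring on the median gene and -0.15 with column medians. In wild type it was 0.25 with *Hsp90ab1* alone and -1.50 with column medians, the latter past 2-fold lower. *Irf1* in IFNAR-/- (1.40, under a 3-fold threshold) was 0.78 with 5 housekeeping genes, 0.15 after centring, -0.65 with column medians and -0.33 with TLR7-/- Mock as the control. In wild type it was 0.70 with column medians and 0.58 with TLR7-/- Mock. The cause was not tested.

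Between TLR7-/- and wild type, the *Cxcl10* response was -0.05 with *Hsp90ab1* alone and 1.35 with column medians, its R848 level 1.00 with *Gapdh* alone, and its Mock level -0.03 with 5 housekeeping genes, -0.53 after centring and -0.63 with column medians. The *Irf1* response was -0.65 with column medians and its Mock level 0.92, 0.43 and 0.33 with 5 housekeeping genes, centring and column medians, beside R848 levels of -0.35, -0.70 and -0.33. The *Eif2ak2* Mock level was 0.58 after centring and 0.48 with column medians. Between IFNAR-/- and wild type, the *Eif2ak2* response was 1.10 with *Gapdh* alone, 0.10 after centring and 0.05 with column medians, and its Mock level 1.25 with *Hsp90ab1* alone, 1.21 with 5 housekeeping genes, 1.30 after centring and 1.73 with column medians. The *Irf1* response was -1.30 after centring and -1.35 with column medians, its R848 level -1.15 with *Hprt1* alone and -1.28 after centring, and its Mock level 0.38 with column medians.

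Over the plate, TLR7-/- had 7 genes higher with *Hsp90ab1* alone, 10 at 1.5-fold and 1 at 3-fold in place of 4, and 6 and 1 lower at those thresholds in place of 3. IFNAR-/- had 23 higher after centring and 14 with column medians in place of 45. Its 2 lower genes became 5 with *Hprt1* alone, 5 housekeeping genes or 1.5-fold, 1 with *Hsp90ab1* alone, at 3-fold or without capped genes, 8 after centring and 29 with column medians. Wild type had 15 higher with column medians and 21 at 3-fold in place of 32, and 5 lower with *Hsp90ab1* alone, 17 with 5 housekeeping genes, 32 with column medians and 2 at 3-fold in place of 11. Ranking by Pearson r kept 2 of the 3 nearest genes of each member. No paired analysis was possible because the 2 wild-type experiments are given only as their mean, and leaving out an experiment was not run for the same reason. The pooled samples carry no replicate error, which limits every value here.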

Other observations

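The cycle at which each gene was detected, before the reference genes are subtracted, follows from the Ct cap in 5 of the 6 columns. *Eif2ak2* came up at cycle 27.9 in TLR7-/- R848 and 28.2 in TLR7-/- Mock, at 24.2 in IFNAR-/- R848 and 31.4 in IFNAR-/- Mock, and at no later than 24.3 in wild-type R848 and at 31.65 in wild-type Mock. *Cxcl10* came up at cycle 20.9 in TLR7-/- R848 and 21.5 in TLR7-/- Mock, at 20.1 in IFNAR-/- R848 and 28.1 in IFNAR-/- Mock, and at no later than 20.6 in wild-type R848 and at 23.85 in wild-type Mock. *Irf1* came up at cycle 22.2 in TLR7-/- R848 and 23 in TLR7-/- Mock, at 23.5 in IFNAR-/- R848 and 27.4 in IFNAR-/- Mock, and at no later than 20.85 in wild-type R848 and at 26.3 in wild-type Mock. All 3 genes, *Cxcl10* in wild type included, were thus detected earlier with R848 in each pair before the reference genes were subtracted. These cycles still contain the amount of material on each plate.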
